A study of Mus musculus with 22 samples.

Results

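The cells described here are the 172 of 15707 single cells in which the raw counts of S100a8, S100a9, Camp, Ngp and Ltf summed to 10 or more. They came from a study of Mettl3, the catalytic subunit of the complex that writes N6-methyladenosine into mRNA, in blood stem and progenitor cells of the mouse fetal liver at stage E14.5. KO stood for Vav-Cre Mettl3fl/fl embryos and WT for Mettl3fl/fl embryos that lack the Cre, so both groups carried the floxed alleles and neither was a wild-type locus. Vav directs Cre to blood cells, so in the KO liver the cells outside the blood lineage keep Mettl3. Single cells were Lin-Sca-1+c-Kit+ (LSK) cells, a sort made to enrich stem and multipotent progenitors and to remove mature blood cells, captured with beads in microwells in 2 KO and 2 WT libraries. The same sorted fraction was measured as bulk RNA in 3 KO and 3 WT libraries, and its H3K4me3, a histone mark of gene starts, in 2 KO and 2 WT libraries. Whole fetal liver RNA (INPUT) gave 2 KO and 2 WT libraries more. The labels describe each library as 1 mouse.

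Neutrophils fill their granules in steps. The progenitor first makes the proteins of primary granules, among them myeloperoxidase (Mpo), neutrophil elastase (Elane), proteinase 3 (Prtn3) and cathepsin G (Ctsg), and after cell division slows it makes the proteins of secondary granules: Camp, an antimicrobial peptide precursor, Ngp, neutrophilic granule protein, Ltf, the iron-binding lactoferrin, and Lcn2, a binder of iron-carrying siderophores. S100a8 and S100a9 are calcium-binding proteins that pair as calprotectin, which is stored in the cytosol rather than in a granule and becomes a major protein of mature neutrophils. The factor C/EBPε (Cebpe) is needed for the secondary granule genes.

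The name of these cells was only partly borne out by the genes that chose them. Ltf was not analysed in the cells, so the sum held 4 genes, and all 172 cells reached 10 by S100a8 and S100a9 alone. S100a8 gave 71.0% of the 15230 gate counts, S100a9 23.5%, Camp 5.12% and Ngp 0.407%. The cells are therefore called S100a8- and S100a9-high below, or gated cells. A feature of the deposited table also shaped the rule: within each library, no gene was listed in fewer than 10 cells other than at 0. A gene listed at 0 throughout a library may thus have had counts in a few of its cells. Camp was listed in KO 1 and WT 1 only, and Ngp in KO 1 only, so that in KO 2 and WT 2 the rule summed S100a8 and S100a9. Of the 14780 genes of the table, 12045 were listed in all 4 libraries.

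Gate sums near the threshold formed no gap. The sum was 8 in 9 cells, 9 in 6 cells, 10 in 6 cells, 11 in 5 cells and 12 in 5 cells, against a median of 54 and a highest value of 729 in the gated cells. The median sum was 54 in KO 1, 57 in KO 2, 75 in WT 1 and 42.5 in WT 2. Gated cells were somewhat deeper than the others, with a median total of 2077 against 1718 counts per cell. Their median mitochondrial share was 5.10% in KO 1, 3.48% in KO 2, 2.92% in WT 1 and 3.61% in WT 2, close to that of the other cells of each library (4.90%, 3.05%, 3.73% and 3.63%). No doublet caller was run. Of the cell barcodes, 8 occurred in more than 1 library, in 16 cells, and 0 of those were gated.

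The number of gated cells varied more between the libraries of a genotype than between genotypes. KO 1 held 128 among 4930 cells, a share of 2.60% (95% exact Clopper-Pearson interval 2.17 to 3.08%). KO 2 held 6 among 3894 cells, or 0.154% (0.0566 to 0.335%). WT 1 held 30 among 2734 cells, or 1.10% (0.742 to 1.56%), and WT 2 held 8 among 4149 cells, or 0.193% (0.0833 to 0.380%). Thus both libraries numbered 1 were high, both numbered 2 were low, and the genotypes overlapped. The share was 16.9 times as high in KO 1 as in KO 2 and 5.69 times as high in WT 1 as in WT 2. Between genotypes it was 2.37 times as high in KO 1 as in WT 1, and 0.799 times as high in KO 2 as in WT 2. The mean was 1.38 ± 1.73% in KO and 0.645 ± 0.640% in WT (SD, n = 2 libraries each). The difference of 0.730 percentage points did not pass an exact two-sided permutation test over the libraries (p = 1; the smallest p that 2 against 2 allows is 0.333), and it turned to -0.491 without KO 1. The intervals cover counting error only.

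**Figure D1:**
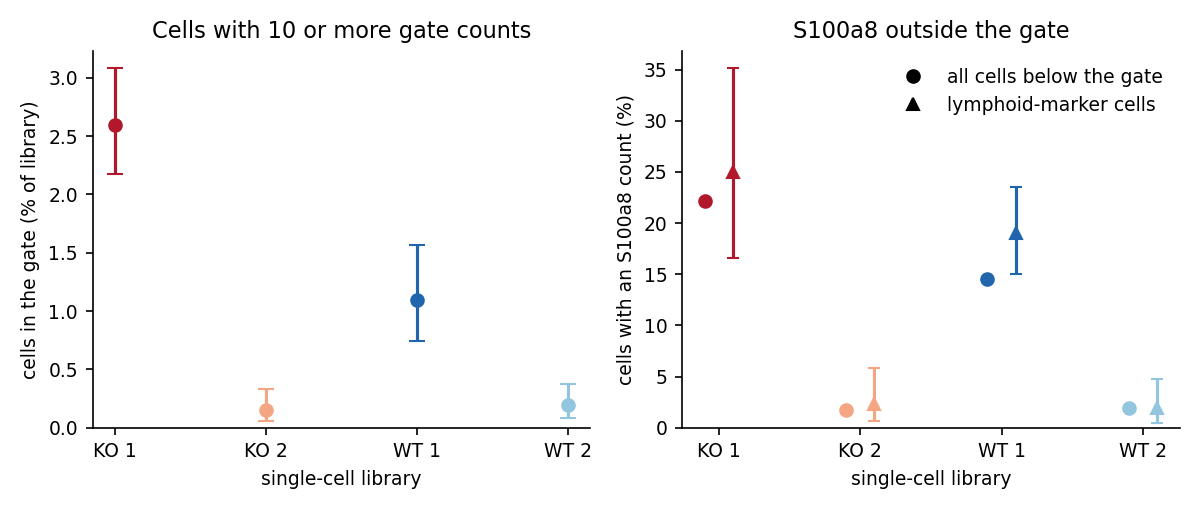
Left, share of each single-cell library's cells with 10 or more gate counts, in percent, with 95% exact intervals. Right, share of cells outside the gate with an S100a8 count, in percent, for all such cells (circles) and for cells with 3 or more lymphoid marker counts (triangles with exact intervals; 2 of those in WT 1 were gated). KO 1 and WT 1 are the high libraries in both panels (2.60% and 1.10% on the left).

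S100a8 counts in cells outside the gate followed the same order of libraries. At least 1 S100a8 count was found in 22.2% of the cells outside the gate in KO 1, 1.72% in KO 2, 14.53% in WT 1 and 1.96% in WT 2. Cells with 3 or more counts of lymphoid markers, a class taken to carry little S100a8, were set beside them in each library. An S100a8 count was present in 25.0% of 92 such cells in KO 1 (exact interval 16.6 to 35.1%), in 2.34% of 171 in KO 2, in 19.0% of 342 in WT 1 (2 of them gated) and in 1.90% of 211 in WT 2. Their median depths were 2068, 6035, 2667.5 and 2854 counts, against 1468.5, 2131.5, 2094 and 1558 for all cells outside the gate. Without matching for depth, the share of cells outside the gate with S100a8 lay at or below this background in KO 1, KO 2 and WT 1. In WT 2 it lay within the interval of the background. The order by level was another. In CPM (defined below), S100a8 stood at 161.3, 6.71 and 12.4 outside the gate in KO 1, KO 2 and WT 2. The lymphoid-marker cells of these libraries had 100.4, 3.05 and 5.39 CPM. In WT 1 the values were 65.8 and 168 CPM, the latter with the 2 gated cells. Whether S100a8 counts outside the gate were expression was not tested, and they are not read as such. Most gate counts lay in gated cells, which the rule chose by these counts, with 82.5% of them in KO 1, 84.6% in KO 2, 85.8% in WT 1 and 77.0% in WT 2.

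Within the gate, S100a8 was detected in all 172 cells and S100a9 in 155. In CPM, the gene's counts scaled to a total of 1000000 over the summed gated cells of a library, S100a8 stood at 23335 in KO 1, 19128 in KO 2, 36415 in WT 1 and 18562 in WT 2. S100a9 stood at 8091, 3622, 11826 and 4099.5 CPM in the same order. WT 1 had the highest level of both genes, and the remaining 3 libraries lay close together for S100a8. These levels follow from the rule and carry no test. Gate genes made up 3.25% of all gated counts in KO 1, 2.28% in KO 2, 5.47% in WT 1 and 2.27% in WT 2.

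Secondary granule transcripts were present in a minority of the gated cells of KO 1 and in 15 of the 30 gated cells of WT 1. Camp was detected in 36 gated cells of KO 1 (28.1%) and in 50.0% of those of WT 1, at 892 and 6419.5 CPM. Ngp was detected in 9 gated cells of KO 1, with 62 counts. Lcn2 was found in 10 gated cells of KO 1 and 5 of WT 1, and Fcnb, a ficolin of neutrophil granules, in 28 and 14. None of these 4 genes was listed in KO 2 or WT 2. Cebpe, listed in KO 1 only, was found in 15 of its 128 gated cells.

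**Figure D2:**
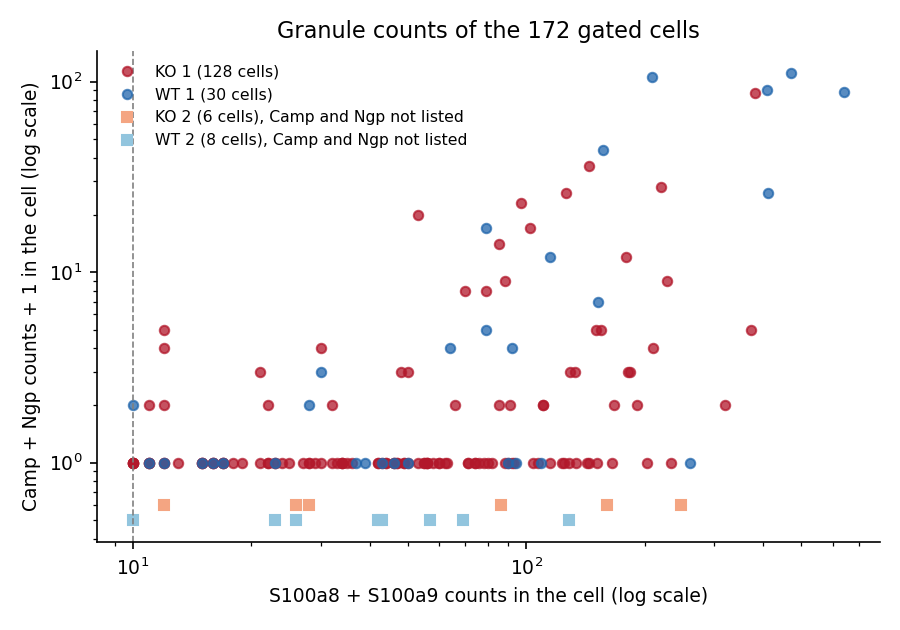
Each point is 1 gated cell, with its S100a8 and S100a9 counts on the x axis and its Camp and Ngp counts plus 1 on the y axis, both on log scales; KO 2 and WT 2, where Camp and Ngp were not listed, are drawn as a row of squares. Most of the 172 cells have no Camp or Ngp count, and the cells with the most Camp lie toward high S100a8 and S100a9.

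The gated cells of KO 1 and WT 1 were also divided by Camp, a split chosen after the data had been seen and given without a test. Cells with 5 or more Camp counts numbered 13 in KO 1 and 9 in WT 1, and cells without Camp numbered 92 and 15. S100a8 was higher in the Camp-rich cells, at 44659 against 19271 CPM in KO 1 and at 78189 against 17572 CPM in WT 1. Lcn2 ran the same way, at 339 against 9.01 CPM in KO 1 and 712 against 45.3 CPM in WT 1. Between Camp-rich and Camp-free cells, the primary granule genes Mpo, Prtn3 and Ctsg ran the other way in both libraries. Mpo stood at 791 CPM in the Camp-rich and 2082 in the Camp-free cells of KO 1, and at 2010.2 and 3714 in WT 1. Ctsg stood at 188 and 1383 CPM in KO 1, from 5 counts in the Camp-rich cells, and at 838 and 2106 in WT 1. Prtn3 stood at 565 and 1063 CPM in KO 1 and at 1047 and 1857 in WT 1. Elane did not share this order: it stood at 151 CPM in the Camp-rich cells of KO 1, from 4 counts, against 99.1 in the Camp-free cells, and at 796 against 951 in WT 1. Ms4a3 differed little, at 602 against 671 CPM in KO 1 and 628 against 769.9 in WT 1. Mki67, a gene of cycling cells, stood at 301 against 342 CPM in KO 1 and 712 against 136 in WT 1. Cells with 1 to 4 Camp counts, 23 in KO 1 and 6 in WT 1, lay outside the range of the other classes for Ctsg and Prtn3. Ctsg stood there at 1492 CPM in KO 1 and 183 in WT 1, from 86 and 2 counts. Prtn3 stood there at 1127 and 457 CPM, from 65 and 5 counts, and Mpo at 1821 and 2011. Of the 22 Camp-rich cells, 17 still carried a count of Mpo, Prtn3, Ctsg or Elane.

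Primary granule transcripts were the broader feature. A count of Mpo, Prtn3, Ctsg or Elane was present in 161 of the 172 gated cells, or 93.6% (exact interval 88.8 to 96.8%), against 61.6% of the other cells. Mpo was detected in 83.1% of gated against 49.7% of other cells, and in 71.9% against 34.8% after every cell was thinned to 1000 counts, which kept 158 gated and 12996 other cells. For Ctsg the shares were 68.6% against 11.5%, and 54.0% against 7.09% after thinning. Ms4a3, a membrane protein of granulocyte and monocyte progenitors, was detected in 65.7% against 4.63%, and after thinning in 46.1% against 2.71%. These shares pool the libraries, and KO 1 gave 128 of the 172 gated cells. In KO 1 alone, a count of Mpo, Prtn3, Ctsg or Elane was present in 93.75% of gated against 73.7% of other cells. In WT 1 the shares were 90.0% against 51.2%. For Ctsg after thinning they were 55.9% against 14.4% in KO 1 and 45.7% against 3.96% in WT 1. At equal depth, Mpo, Ctsg and Ms4a3 were each detected in a larger share of gated than of other cells within each library. KO 2 and WT 2 held only 6 and 8 gated cells.

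Gated and other cells were then compared gene by gene within each library, as a log2 ratio of CPM averaged over the 4 libraries. This is a description with no test, since the cells were chosen by their counts. Over the 12045 genes listed in all 4 libraries the median ratio was -0.10. Of these genes, 347 (2.88%) were higher and 3137 (26.0%) lower in the gated cells of all 4 libraries. The genes that led the gated cells, gate genes aside, fell into 3 groups. Stefin A genes, which encode inhibitors of cysteine proteases, came first: BC100530 at 6.91, Stfa1 at 6.48, Gm5483 at 4.17 and Stfa3 at 2.46. Gm5483 was not listed in WT 2 and Stfa3 in neither KO 2 nor WT 2, and the stefin A copies are so alike that counts could be split among them. Genes of primary granules and granulocyte-monocyte progenitors came second: Ms4a3 at 3.49, Ctsg at 3.41, Elane at 2.85, Mpo at 2.39, the serine protease gene Prss57 at 2.34 and the granule membrane gene Cd63 at 2.24. The third group held myeloid surface and secreted proteins: Wfdc21 at 2.62, Ly6c2, a surface antigen of monocytes and granulocytes, at 2.53, the haemoglobin-binding haptoglobin gene Hp at 2.42, Igsf6 at 2.35 and the inhibitory lectin receptor gene Clec12a at 2.34.

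BC100530 and Ms4a3 show these values by library. BC100530 stood at 6657 CPM in the gated and 44.5 in the other cells of KO 1, at 6308 and 5.76 in KO 2, at 12725 and 14.7 in WT 1, and at 7971 and 5.18 in WT 2. For Ms4a3, gated cells had 676, 1221, 633 and 854 CPM in KO 1, KO 2, WT 1 and WT 2, against 73.9, 15.5, 11.4 and 9.87 CPM in the other cells. Every gated sum of these genes lay above every sum of other cells. The level in other cells was highest in KO 1 for both, as it was for S100a8.

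**Figure D3:**
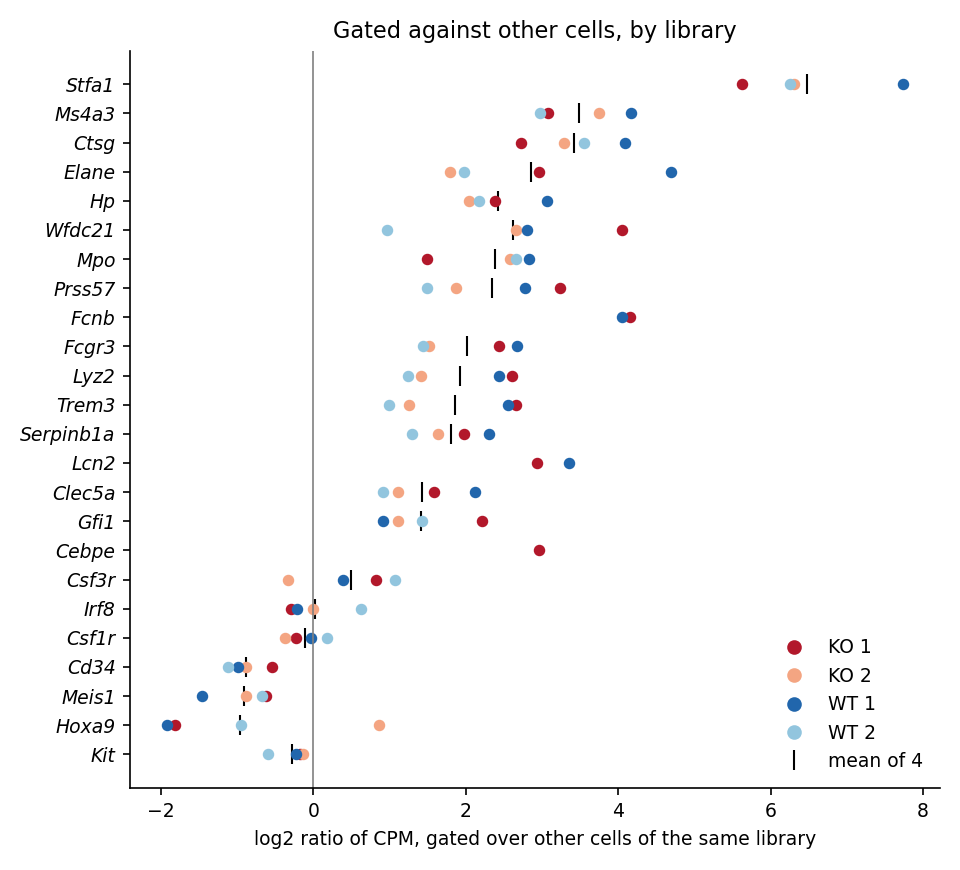
Log2 ratio of CPM in gated over other cells of the same library, 1 coloured point per library and a bar at the mean of 4, for genes of the neutrophil lists and, at the bottom, of the monocyte and stem cell lists; libraries in which a gene was not listed have no point. Ms4a3, Ctsg, Elane, Mpo and Prss57 lie above 0 in each library, with means from 2.34 for Prss57 to 3.49 for Ms4a3.

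By list, the neutrophil genes stood on the high side of the median of -0.10. Of 10 late granule and maturation genes listed in all 4 libraries, 9 were higher in the gated cells of every library and the median ratio was 1.83. Besides Stfa1 and Hp, Lyz2, lysozyme, stood at 1.92, Trem3 at 1.86 and Serpinb1a, an inhibitor of neutrophil proteases, at 1.80. Of 16 primary granule genes, 14 were higher in every library, again with a median of 1.83. Among 10 receptor and adhesion genes only Fcgr3, an Fc receptor for IgG, was higher in every library, at 2.02, and the median was 0.24. Csf3r, the receptor for G-CSF, stood at 0.49. Of the 6 NADPH oxidase subunit genes, which together make the oxidative burst, 3 were higher in every library, with a median of 0.44 and Cyba at 0.99. Of 9 granulocyte transcription factor genes, 3 were higher in every library, among them Gfi1, a repressor needed for neutrophil maturation, at 1.41, while Runx1 was lower in each, and the median was 0.31. Classical markers of the mature neutrophil such as Ly6g, Mmp8 and Mmp9 were not analysed in the single cells.

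Monocyte and macrophage genes lay somewhat above the median of all listed genes, and other lineages under it or near it. Of 11 monocyte and macrophage genes, 7 had a mean ratio above 0, as did 32.1% of all listed genes, and the median was 0.14. F13a1, a coagulation factor gene of monocytes, was the 1 higher in every library, at 1.25. The summed monocyte and macrophage level in gated and other cells was 359 and 346 CPM in KO 1, 488 and 207 in KO 2, 671 and 444 in WT 1, and 683 and 436 in WT 2. It was higher in the gated cells of each library. The exact intervals of the gated sums in KO 1 (295 to 433 CPM) and WT 2 (353 to 1194) spanned the level of the other cells. Those in KO 2 (252 to 853) and WT 1 (503 to 878) lay above it. Such intervals cover counting error only, not the spread between cells, and the KO 2 sum rests on 12 counts from 6 cells. Csf1r, the receptor for the macrophage growth factor CSF-1, stood at -0.11 and Irf8 at 0.03. Their part in the neutrophil list values was not tested. Among all listed genes, 26.0% were lower in every library. Of 11 erythroid genes 7 were lower in every library (median -0.21), of 4 megakaryocyte genes 3 (-0.28), of 7 dendritic and MHC class II genes 4 (-0.26) and of 3 eosinophil, basophil and mast cell genes 2 (-0.13). Of 12 lymphoid genes 9 were lower in every library (median -0.33), and the 1 higher in every library, Nkg7, also stands in the primary granule list. Rag1 and Rag2 had 0 counts, which says little, since a library held only 18 to 63 cells with Rag1 and 30 to 81 with Rag2. Summed over the erythroid list, the gated and other cells had 1388 and 1438 CPM in KO 1, 651 and 490 in KO 2, 1519 and 1823 in WT 1, and 114 and 646 in WT 2. Erythroid transcripts were therefore not higher in gated than in other cells except in KO 2, where the exact interval of the gated sum, 372 to 1057 CPM, spanned the level of the other cells. The 2 hepatocyte genes that were listed in all libraries had a median ratio of 0.00.

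Several stem and multipotent genes were lower in the gated cells. Of 15 such genes, 7 were lower in every library, as were 26.0% of all listed genes. None was higher in every library, and the median was -0.30. The endothelial protein C receptor gene Procr and Slamf1, both markers of stem cells, had 0 counts. Both were sparse in all cells: a library held 34 to 99 cells with Procr and 21 to 33 with Slamf1. These 0 counts therefore say little. Cd34 stood at -0.88 and was detected in 10.2% of gated against 19.1% of other cells at 1000 counts. Meis1 stood at -0.91, and Hoxa9 at -0.96 in the mean but at 0.86 in KO 2. The genes that define the sort were sparse in gated and other cells: Kit was detected in 7.56% of gated against 9.58% of other cells, and Ly6a, which encodes Sca-1, in 8.14% against 6.75% (3.31% against 3.38% at 1000 counts). By the fixed rule the lowest genes of the gated cells included Ctla2a (-1.28), Gimap9 (-1.24), Ttc3 (-1.18), Gimap6 (-1.18), the angiopoietin gene Angpt1 (-1.14), Plaa (-1.12), Rangrf (-1.11), the chromatin organizer gene Satb1 (-1.10) and Tmsb10 (-1.09).

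KO and WT could be compared within the gate only by values, because KO 2 and WT 2 held fewer than the 10 gated cells set as a minimum for a test. The targeted gene gave little information: gated cells held 23 Mettl3 counts in KO 1, 2 in KO 2, 1 in WT 1 and 0 in WT 2. Among the other cells Mettl3 stood at 62.5 and 54.4 CPM in the libraries labelled KO and at 34.5 and 34.6 CPM in those labelled WT (log2 difference 0.73, adjusted p = 0.244 in edgeR's quasi-likelihood test, Benjamini-Hochberg over all genes). Fitted with a replicate block, this Mettl3 difference was called (adjusted p = 0.0406, edgeR's quasi-likelihood test). The deleted part of the gene is not given in the sources used here, so these counts may lie outside it and do not check the labels. Xist was listed only in the libraries labelled KO and the Y-linked Ddx3y only in those labelled WT. Genotype and sex of the embryos therefore cannot be told apart in the single cells.

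Of the primary granule genes, Elane had lower values in the gated cells of the libraries labelled KO. It was detected in 20 of 128 gated cells of KO 1 (15.6%), 3 of 6 of KO 2, 18 of 30 of WT 1 (60.0%) and 4 of 8 of WT 2. Its level was 91.5 and 203 CPM in KO 1 and KO 2, and 785 and 342 CPM in WT 1 and WT 2. Ly6c2 stood at 108 and 163 CPM in KO and at 570 and 456 CPM in WT. In KO 2 and WT 2 Elane rested on 5 and 6 counts, and the exact Poisson intervals, 66.1 to 475 and 125 to 744 CPM, overlapped. Ctsg, by contrast, stood at 1300.0 and 1262 CPM in KO and 1456 and 1822 in WT, and Mpo at 1921 and 4273 in KO and 2963 and 3758 in WT.

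An edgeR fit on the 4 gated sums was added after the data had been seen, despite the 6 and 8 cells behind a pair of them. It called 4 of 848 genes at an adjusted p under 0.05 (0.472%), with 97 at an unadjusted p under 0.05. Xist (log2 7.99, adjusted p = 0.0379) and Ncl, nucleolin (1.87, adjusted p = 0.0407), were higher in KO in edgeR's quasi-likelihood test, and Elane (-2.57, adjusted p = 0.0379) and Ly6c2 (-2.17, adjusted p = 0.0379) were lower. The Xist value is set by the libraries in which it was not listed. Scaling by DESeq2's method within edgeR (RLE), or by library size alone, left 0 calls, and leaving out single libraries gave between 1 and 8. Whether the KO difference was another in gated than in other cells was not tested.

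Genes of the interferon response, which cells raise on sensing nucleic acid, had higher summed levels in the libraries labelled KO, in gated and in other cells. The summed level of the 47 list genes was 3070 CPM in the gated cells of KO 1 and 3337 in KO 2, against 1583 in WT 1 and 1993 in WT 2. In the other cells it was 3823, 4049, 2484 and 2627 CPM. The genotypes did not overlap in either set, though 2 against 2 libraries allow no exact p under 0.333, and each gated sum lay under that of the other cells of its library. Of the 5 list genes with the most counts in gated cells, Ifitm3, a membrane protein that restricts virus entry, stood at 428 and 570 CPM in KO and at 76.0 and 171 CPM in WT, from 131, 14, 6 and 3 counts. Bst2, or tetherin, had 2 counts in KO 2 and 1 in WT 2, too few for a comparison. B2m, the light chain of MHC class I, Ly6e and the immunoproteasome subunit gene Psmb8 overlapped between the genotypes. Isg15, a ubiquitin-like modifier, was found in 4 gated cells of KO 1, 1 of KO 2 and 0 of the WT cells. A count of 0 allows 3 cells with a count, or 10.0% of the gated cells of WT 1 and 37.5% of those of WT 2, which bounds detection and not expression.

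The genes of the gate were next measured in bulk RNA of LSK cells, in their H3K4me3 and in whole liver RNA, none of which the rule used. In bulk RNA a lower value can mean fewer cells of a type or less RNA per cell, and these cannot be told apart. The promoters of S100a8, S100a9, Camp and Ngp are shown because both their RNA and the mark at their starts are compared below. Each is the 250 bases before the RefSeq start (GRCm38.p6), 5′ to 3′ on the gene's strand: S100a8 at chr3:90668821-90669070 on the plus strand, S100a9 at chr3:90695722-90695971 on the minus strand, Camp at chr9:109849457-109849706 on the minus strand and Ngp at chr9:110419558-110419807 on the plus strand. Capitals mark matches, on either strand, to TTNNGNAA, a form of the site bound by C/EBP factors, or to GAGGAA, a site of ETS factors such as PU.1.
S100a8: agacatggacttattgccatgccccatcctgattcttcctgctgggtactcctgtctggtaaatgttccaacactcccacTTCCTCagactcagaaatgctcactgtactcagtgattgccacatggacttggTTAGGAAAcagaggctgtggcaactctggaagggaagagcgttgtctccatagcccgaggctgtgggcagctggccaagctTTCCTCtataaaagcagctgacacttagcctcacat
S100a9: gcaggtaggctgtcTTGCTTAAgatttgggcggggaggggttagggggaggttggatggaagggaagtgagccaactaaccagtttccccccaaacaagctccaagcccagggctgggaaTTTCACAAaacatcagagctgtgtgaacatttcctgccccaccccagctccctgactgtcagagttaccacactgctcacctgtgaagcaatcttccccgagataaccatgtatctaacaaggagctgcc
Camp: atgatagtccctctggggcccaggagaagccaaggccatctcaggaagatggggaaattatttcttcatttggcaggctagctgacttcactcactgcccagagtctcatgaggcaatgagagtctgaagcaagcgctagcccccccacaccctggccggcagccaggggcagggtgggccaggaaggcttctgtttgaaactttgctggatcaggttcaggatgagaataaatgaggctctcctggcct
Ngp: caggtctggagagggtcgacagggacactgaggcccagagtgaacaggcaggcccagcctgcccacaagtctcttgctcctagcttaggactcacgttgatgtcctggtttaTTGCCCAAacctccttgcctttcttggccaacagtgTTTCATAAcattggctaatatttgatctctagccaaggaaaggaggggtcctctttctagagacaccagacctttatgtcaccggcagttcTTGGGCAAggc
The C/EBP letters occurred 1 time in the S100a8 promoter, 2 times in that of S100a9, 3 times in that of Ngp and not in that of Camp. The ETS letters occurred 2 times in that of S100a8 and in none of the other 3. Of 32851 RefSeq mouse promoters of this length, 36.8% held the former and 23.3% the latter, and a match is no proof of a site.

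In bulk LSK RNA Mettl3 was low in every library labelled KO, at 4.13, 6.30 and 5.52 CPM against 42.9, 42.9 and 33.1 in WT (log2 -2.91, adjusted p = 1.57e-05 in edgeR's quasi-likelihood test, Benjamini-Hochberg over all genes). S100a8 stood at 43.7, 97.0 and 88.8 CPM in KO 1, 2 and 3, and at 18.7, 34.4 and 12.6 CPM in WT. The groups did not overlap, and the difference was 1.78 on the log2 scale (SE 0.37, n = 3 each, adjusted p = 0.00434, edgeR's quasi-likelihood test). S100a9 stood at 27.3, 73.9 and 62.0 CPM in KO and 15.6, 34.8 and 10.5 in WT, so that KO 1 lay below WT 2. Its difference of 1.40 (SE 0.44, adjusted p = 0.0297, edgeR's quasi-likelihood test) lost its call without KO 2 (0.0969), KO 3 (0.0811), WT 1 (0.0616) or WT 3 (0.0663), and in DESeq2 (0.0578). Of all 14405 genes tested, 44.2% were called, 21.6% higher and 22.6% lower in KO, so 2 calls among the 5 gate genes are near the background.

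The secondary granule genes did not follow S100a8 in this RNA. Camp stood at 2.80, 3.58 and 3.93 CPM in KO and 2.82, 6.91 and 1.73 in WT (log2 -0.19, adjusted p = 0.732, edgeR's quasi-likelihood test), and turned to 0.59 without WT 2. Ngp stood at 2.77, 4.44 and 3.49 CPM in KO and 2.98, 4.49 and 1.04 in WT (log2 0.28, adjusted p = 0.608, edgeR's quasi-likelihood test), and turned to -0.046 without WT 3. Ltf stood at 2.04, 2.80 and 3.31 CPM in KO and 3.26, 6.75 and 3.21 in WT (log2 -0.72, adjusted p = 0.0911, edgeR's quasi-likelihood test), and was called lower without WT 1 (adjusted p = 0.0334) and without the filter on low counts (0.0347). KO and WT overlapped for all 3 genes, and WT 2 was the highest library for each.

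Several primary granule genes, and some of later steps, were higher in KO. In bulk RNA, Ms4a3 rose by 2.94 on the log2 scale (49.4, 61.9 and 56.3 CPM in KO, 7.97, 8.34 and 5.24 in WT), Hp by 2.59 and Ctsg by 2.32. Cebpe rose from 2.29, 2.66 and 1.58 CPM in WT to 7.58, 7.72 and 7.39 in KO (log2 1.77, adjusted p = 0.000136 in edgeR's quasi-likelihood test). Elane, with 24.3, 25.8 and 24.8 CPM in KO and 18.4, 23.6 and 10.1 in WT, did not pass (log2 0.51, adjusted p = 0.114 in edgeR's quasi-likelihood test), but was called higher in DESeq2 (0.0454), without the filter on low counts (0.0173) and without WT 2 (0.0306). By list, 10 of 16 primary granule genes rose and none fell (median log2 0.79), 8 of 23 late granule genes rose and 2 fell (0.46), and 7 of 10 granulocyte transcription factor genes rose and none fell (0.44). The 10 late granule genes called among 23 are near the 44.2% called among all genes. Of 12 receptor genes 6 rose and 4 fell, and of 6 NADPH oxidase genes 3 rose and 2 fell. The median over all genes tested was -0.02. Markers of other cells moved too: 12 of 21 monocyte and macrophage, 14 of 16 lymphoid and 9 of 10 dendritic and MHC class II genes fell, while 2, 0 and 1 rose. Of 16 stem and multipotent genes 11 fell and 1 rose, of 17 erythroid genes 8 fell, and of 8 endothelial and stromal genes 5 fell. Of 13 eosinophil, basophil and mast cell genes 5 rose and none fell. Their part in the values of the granule genes was not tested.

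**Figure D4:**
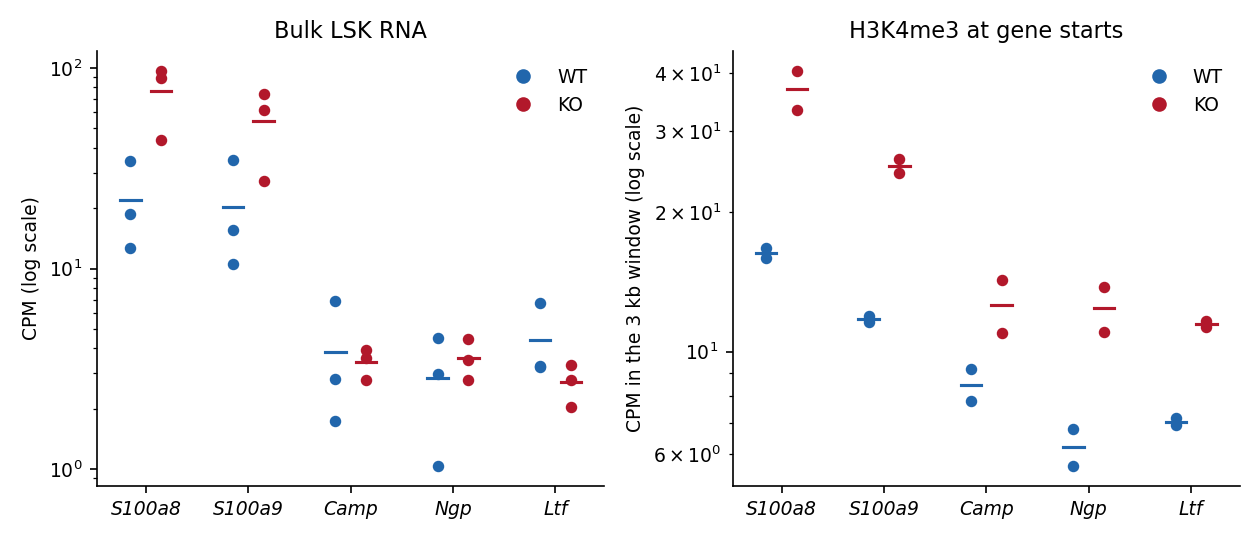
CPM, with TMM scaling, of the 5 gate genes on a log axis, 1 point per library and a bar at the mean, in bulk LSK RNA (left) and in the H3K4me3 windows at gene starts (right), KO red and WT blue. S100a8 is separated by genotype in both panels, whereas Camp, Ngp and Ltf overlap between KO and WT in RNA and are separated in H3K4me3.

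H3K4me3 was higher in KO in the windows of all 5 gate genes, where 7.88% of 51039 windows were called, 3.22% higher and 4.66% lower in KO. Reads were counted in windows of 3 kb around a transcript start, and each gene was given the window with the highest mean count. The S100a8 window held 33.3 and 40.5 CPM in KO and 16.7 and 16.0 in WT (log2 1.18, n = 2 each, adjusted p = 2.13e-08 in edgeR's quasi-likelihood test). S100a9 had 24.3 and 26.0 CPM in KO and 11.6 and 12.0 in WT (log2 1.09, adjusted p = 4.07e-08, edgeR's quasi-likelihood test). The windows of these neighbouring genes were separate, and KO and WT did not overlap in either.

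The windows of the secondary granule genes rose where their RNA had not. Ngp had 11.0 and 13.8 CPM in KO and 5.66 and 6.79 in WT (log2 1.00, adjusted p = 1.26e-05, edgeR's quasi-likelihood test). Camp had 10.9 and 14.3 CPM in KO and 7.80 and 9.16 in WT (log2 0.58, adjusted p = 0.0212, edgeR's quasi-likelihood test). The Camp call was lost without KO 2 (0.148), without WT 1 (0.100), in DESeq2 (0.113) and with scaling by library size alone (0.226). Ltf had 11.3 and 11.6 CPM in KO and 7.18 and 6.94 in WT (log2 0.70, adjusted p = 0.00574, edgeR's quasi-likelihood test), but its window lay at the start of transcript Ltf-208, position 111035639 of chromosome 9, downstream of the RefSeq start, whose promoter ends at 111019291. Its call was lost without WT 2 (0.0796), in DESeq2 (0.0705) and with library size alone (0.132). Whether the H3K4me3 differences exceeded the RNA differences was not tested.

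The mark rose at further granule genes. Lcn2 rose by 1.33, Ms4a3 by 1.31 and Cebpe by 0.95 on the log2 scale. Of 31 late granule genes 12 rose and none fell (median log2 0.45), of 16 primary granule genes 7 rose and none fell (0.54), and of 6 NADPH oxidase genes 5 rose and none fell (0.78). Lists of other kinds also lay above the median over all windows, which was -0.15: the median was 0.40 over 16 stem cell genes, 0.27 over 14 genes of the N6-methyladenosine machinery and 0.25 over 24 genes of mitosis and S phase. The background holds windows of all genes, not of genes matched to the lists. The median over all windows moved to -0.40 with library size alone. The 4024 calls over all windows were 1644 higher and 2380 lower, and with library size alone 1305 higher and 3309 lower.

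In whole liver RNA the gate genes varied widely between libraries. S100a8 stood at 175 and 170 CPM in KO and at 7.70 and 68.5 in WT (log2 2.19, adjusted p = 0.196, edgeR's quasi-likelihood test). The groups did not overlap, and the call was made without WT 2 (adjusted p = 0.0194) and without the filter on low counts (3.65e-06). S100a9 stood at 72.9 and 128 CPM in KO and 53.9 and 46.9 in WT (log2 0.99, adjusted p = 0.260, edgeR's quasi-likelihood test). Camp at -0.61, Ngp at 0.79 and Ltf at 1.12 on the log2 scale did not pass either, and Camp turned to 0.73 without WT 2. Of 14657 genes tested, 1.18% were called, 0.614% higher and 0.566% lower in KO. In the neutrophil lists, 1 of 19 late granule, 3 of 14 primary granule and 1 of 6 NADPH oxidase genes were called, all higher in KO. Of 10 receptor genes and 10 granulocyte transcription factor genes, none was called. Among granulocyte genes Lyz2 rose, from 18.9 and 23.6 CPM in WT to 98.6 and 126 in KO (log2 2.40, adjusted p = 0.00382, edgeR's quasi-likelihood test), as did Ctsc, the protease that activates the granule serine proteases (2.69, adjusted p = 0.000561), and Mpo (1.23, adjusted p = 0.0432). The Mpo call was lost without KO 1 (0.114), KO 2 (0.182) or WT 1 (0.0746). Mettl3 stood at 6.68 and 26.8 CPM in the libraries labelled KO and at 29.3 and 24.9 in WT, so that the library labelled KO 2 was not low. Markers of monocytes and macrophages (2 of 21) and of hepatocytes (3 of 11) also rose. Erythroid genes (4 of 17, median log2 -0.35) and 1 of 3 eosinophil, basophil and mast cell genes fell. The part of these lists in the granule gene values was not tested.

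In the single cells outside the gate none of the neutrophil list genes was called, where 1 of 13349 genes was called (0.00749%). S100a8 had a log2 difference of 1.07 (adjusted p = 0.791, edgeR's quasi-likelihood test) and S100a9 of 1.15 (adjusted p = 0.798, edgeR's quasi-likelihood test). Both followed library KO 1 and turned to -2.66 and -2.81 without it.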

How the data were processed

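Single-cell libraries (2 KO, 2 WT), bulk RNA (3 and 3), H3K4me3 CUT&RUN (2 and 2) and whole liver RNA (INPUT, 2 and 2, with 4 J2 pulldown libraries that entered only the estimate of spread) were used. The authors deposited all of them as raw counts, per gene and cell, per gene, or per window of 3 kb at a transcript start. The submitters' processing notes name STAR 2.5.3a, Bowtie2 2.2.9, Picard 2.9.0, Seurat 3.0, edgeR and bedtools with GRCm38.p5, without saying which step each made; the counter, its annotation and its strand setting are not given in the sources used here. In each single-cell library the deposited counts list a gene only if 10 or more cells carry it.

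Every deposited cell was kept. Total counts were 20088100 to 40641081 in bulk RNA, 11508749 to 14451593 in H3K4me3, 3100910 to 4120864 in INPUT and 7190272 to 11627892 in the cells outside the gate, whereas gated sums held 306148 (KO 1), 24571 (KO 2), 78978 (WT 1) and 17563 (WT 2) counts. For H3K4me3 the window with the highest mean count of each gene was used.

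CPM are counts scaled to a total of 1000000, in the single cells over a sum of cells. In bulk RNA, H3K4me3 and INPUT the library totals were first multiplied by TMM factors. Groups said not to overlap there rest on that scaling. Ratios of gated to other cells had an offset worth 2 counts in the gated sum added as the same CPM to both sides; the fixed plan said 2 counts per sum, which the unequal depths would have biased. Tests across genes used filterByExpr, TMM scaling and edgeR 4.0.16's quasi-likelihood test in R 4.3.3, with Benjamini-Hochberg adjustment over all genes tested and a threshold of 0.05, after a check on simulated data. Alternatives were RLE and library size scaling, DESeq2 1.42.0, no filter, a replicate block, each library left out, and other gates. The test within the gate was conditional on 10 gated cells per library, which KO 2 and WT 2 lacked; the fit given was added after the data were seen, as was the Camp split.

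Members and gene lists were chosen with earlier results of these data known. Named were the gate genes, members of the neutrophil lists, the 15 genes with the highest and the 10 with the lowest ratio (at least 50 gated counts, or 500 in other cells; 1 of the lowest is not reported here), Mettl3, and, with under 5 calls in the gate, the 5 interferon list genes with most gated counts; Xist, Ddx3y, Ncl and Ly6c2 and the stem cell, lymphoid and erythroid genes were named after their values were seen.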

Additional observations from a re-analysis of the deposited data

How the results depend on the processing

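The difference in gated share between KO and WT (0.730 percentage points) was positive with gates of 5 counts (1.06), 20 counts (0.575) or 1% of a cell's counts (0.604), after filtering cells (0.732) and after thinning (0.883). It was -0.0349 for Camp and Ngp alone, and -0.491 to 1.95 with each library left out. The 4 genes called in the added fit on gated cells became 0 with RLE, 0 with library size, 1 in DESeq2, 1 without the filter, 3 with a replicate block and 0 with the 1% gate, and 1 to 8 with libraries left out. Of 28 gate and late granule genes tested in bulk RNA, 12 were called (17 with the block, 8 to 13 with libraries left out). This is near the 44.2% called among all genes. In H3K4me3 17 of 36 were called, against 7.88% of all windows. With the block 24 were called, where calls over all windows rose too, to 12434 higher and 8408 lower. In INPUT the 1 call became 4 in DESeq2, 4 without the filter and 1 to 2 with libraries left out, and outside the gate 0 calls became 1 in DESeq2 and 3 with the block. Signs turned among libraries left out for bulk Camp (-0.48 to 0.59), bulk Ngp (-0.046 to 0.79) and INPUT Camp (-1.29 to 0.73), and outside the gate for S100a8 (-2.66 to 2.83) and S100a9 (-2.81 to 4.05). Of 344 values of named genes under alternatives, 287 kept direction and side of the threshold, 42 lost and 10 gained a call, and 5 changed sign. Same-numbered libraries deviated together by correlations of 0.0442 to 0.23 in bulk RNA, 0.302 in H3K4me3, -0.0128 in INPUT and 0.254 outside the gate. These values do not decide whether same-numbered libraries are pairs, and the gated share followed the numbers. The main tests did not take numbers as pairs, and the replicate block is the alternative that does. With a replicate block the share difference is 0.730 by arithmetic, and adjusted p was 0.0155 for bulk Elane, 0.0362 for bulk Ltf and 0.0406 for Mettl3 outside the gate, all then called. Bulk calls over all genes were 3114 higher and 3253 lower, and 2463 and 4143 with library size; INPUT calls were 90 and 83, and 271 and 58, where the median moved from 0.02 to 0.29. Over all H3K4me3 windows, DESeq2 called 789 higher and 37 lower and the block 12434 and 8408, against 1644 and 2380. In INPUT, DESeq2 called 376 and 441, and omitting the filter 377 and 421. Outside the gate, DESeq2 called 211 and 85 and the block 282 and 149, against 1 and 0. The planned test of whether KO effects differ between gated and other cells was not run, because its minimum of gated cells was not met. With 6 and 8 gated cells, KO 2 and WT 2 limit every value within the gate.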

Other observations

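Summed over genes of DNA synthesis and mitosis, the gated cells lay somewhat below the other cells of each library. Over 24 such genes the median log2 ratio of gated over other cells was -0.19, where the median over all listed genes was -0.10. Of the 24 genes, 7 were lower and none higher in every library. Over all listed genes 26.0% were lower and 2.88% higher in every library, so these counts are near the background. The summed level of the list was 4658, 5535, 5141 and 4441 CPM in the gated cells of KO 1, KO 2, WT 1 and WT 2, and 5081, 5712, 5485 and 5963 CPM in the others. The exact intervals of the gated sums lay below the other cells in KO 1 (4419 to 4906 CPM) and WT 2 (3511 to 5543). They spanned the level of the other cells in KO 2 (4644 to 6547) and WT 1 (4653 to 5666). These intervals cover counting error only, not the spread between cells, and the WT 2 sum rests on 78 counts from 8 cells. Mki67, a marker of cycling cells, was detected in 73 gated cells (42.4%) against 38.2% of the others, and at 1000 counts per cell in 25.3% against 23.5%. The 14 genes of the N6-methyladenosine machinery had a median ratio of -0.19, with 2 lower and none higher in every library. These counts, too, stand beside the 26.0% and 2.88% of all listed genes.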
